A study of Oryza sativa with 4 samples.

Results

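The argonautes of the AGO1 and MEL1 clades of rice (Oryza sativa) were followed in young panicles. The members are AGO1A (LOC4330281), AGO1B (LOC9270411), AGO1C (LOC4331253), AGO1D (LOC4342138), PNH1 (LOC9269490), MEL1 (LOC4334449), AGO14 (LOC4342603), AGO17 (LOC4328436) and AGO18 (LOC4343201). They were taken as every probe set that the platform's annotation ties to 1 of these genes and to no other. That gave 11 probe sets for 9 genes, of 57194 probe sets on the array and 17905 genes with a probe set of their own. AGO1B and AGO18 have 2 probe sets each and the other 7 genes have 1. The rule uses no measured value, although the genes were chosen with earlier results of these data known.

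The samples are panicles before stage 5 from field-grown plants. One group carries ago2-1, in which an antisense construct is aimed at the argonaute gene OsAGO2, and the other is the wild type cultivar ZH11 (WT). Each genotype was measured on 1 Affymetrix array in 2014 and 1 in 2013, so there are 4 arrays and n = 2 per genotype and per year. The labels do not say how many plants or lines stand behind an array, and p-values therefore measure the spread between these arrays.

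Argonaute proteins hold a small RNA and use it to find matching transcripts, which they cut or silence. AGO1-type proteins carry most microRNAs in plants, and their own transcripts are a target of the microRNA miR168. MEL1 is a germ-line argonaute that binds phased small RNAs in germ cells and is needed for meiosis in rice. AGO18 belongs to a branch found in grasses, and in virus-infected rice it binds miR168 and so relieves AGO1.

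All levels below are log2 intensities after the 4 arrays were brought to a common distribution by quantile scaling. As deposited, the median intensity was 45.2 and 45.3 on the arrays of 2014 and 28.8 and 29.1 on those of 2013, an upward shift of 0.65 log2 in sorted values. Levels of different years can therefore be set side by side only on the scaled values. Differences within a year depend on it less, with AGO1D in 2013 at 0.22 scaled and 0.17 as deposited, and AGO1B by its second probe set at 0.21 and 0.16. Probe brightness depends on the probe, so levels are compared for the same probe set only. The meristem marker OSH1 lay at 11.52 and 11.48 in 2014 (labelled ago2-1, then WT) and at 11.19 and 11.19 in 2013, brighter on average than 97.2% of probe sets. The targeted gene AGO2 (LOC4336991) showed no decrease in the group labelled ago2-1. It lay at 10.68 on the array labelled ago2-1 and 10.24 on the WT array in 2014, and at 9.92 and 9.84 in 2013. Which stretch of OsAGO2 the antisense RNA matches is unknown here, so these levels can neither bear out nor refute the genotype labels. The text therefore speaks of arrays labelled ago2-1 throughout.

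None of the 9 genes differed between the genotypes past the threshold. The means over both years lay between −0.21 and 0.25, with adjusted p = 1 for each of the 11 probe sets (limma, Benjamini-Hochberg over all probe sets, threshold 0.05) and no unadjusted p under 0.05. Over the whole array 0.00175% of probe sets were called, which is 1 probe set, and 1.2% had an unadjusted p under 0.05. This fit has no term for the year, so the change between the years stays in the spread it tests against. With year as a block 67 probe sets were called (0.117%), again none of the 11, whose adjusted p ran from 0.63 to 0.96. With the block 8.91% of all probe sets had an unadjusted p under 0.05, and again none of the 11 did. A p above the threshold does not show equal levels: the 95% intervals with the block reached from −0.52 at the lowest to 0.57 at the highest.

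AGO1A, a carrier of microRNAs, had 11.20 on the array labelled ago2-1 and 11.14 on the WT array in 2014. In 2013 its levels were 11.25 and 11.14 in the same order. The arrays labelled ago2-1 were higher in both years, and the difference averaged 0.09 ± 0.04 on the log2 scale (SD over both years, n = 2, as for the genotype differences below).

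AGO1B was read by 2 probe sets, which gave nearly the same genotype difference. The probe set ending in S1_a_at had 10.52 (labelled ago2-1) and 10.44 (WT) in 2014, and 10.83 and 10.59 in 2013. The probe set ending in S2_a_at had 12.73 and 12.64 in 2014, and 12.73 and 12.52 in 2013. The mean difference was 0.16 ± 0.12 by the first and 0.15 ± 0.09 by the second (SD, n = 2). The arrays labelled ago2-1 were again higher in both years, although only for the second probe set did the genotypes not overlap over the 4 arrays.

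AGO1C had 9.88 on the array labelled ago2-1 and 9.75 on the WT array in 2014, and 10.10 and 9.87 in 2013. Its difference of 0.18 ± 0.08 (SD, n = 2) was the widest of these genes and did not pass the test (adjusted p = 1 by limma, and 0.71 with year as a block). AGO1D had 12.63 and 12.59 in 2014, and 12.71 and 12.49 in 2013, with a difference of 0.13 ± 0.12 (SD, n = 2).

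The 5 probe sets of AGO1A to AGO1D therefore shared a direction. All 5 were higher on the array labelled ago2-1 in 2014, by 0.04 to 0.12 log2, and in 2013, by 0.11 to 0.24. PNH1, counted here in the same clade, did not share the direction in both years, with 0.20 in 2014 and −0.05 in 2013. Of all probe sets 30.5% were higher in both years. Among the 5442 probe sets at least as bright as the dimmest of these 5, a group formed after the values were seen, it was 38.9%. The 5 probe sets may share target sequence, since the AGO1 genes are close relatives, so they are not 5 independent readings. Their median difference was 0.08 in 2014, where the bright probe sets as a whole had 0.00091, and 0.22 in 2013, where the bright probe sets had 0.044. Opposite signs cancel in the medians of the bright probe sets. Sign aside, the median size over the bright probe sets was 0.093 in 2014 and 0.15 in 2013.

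**Figure D1:**
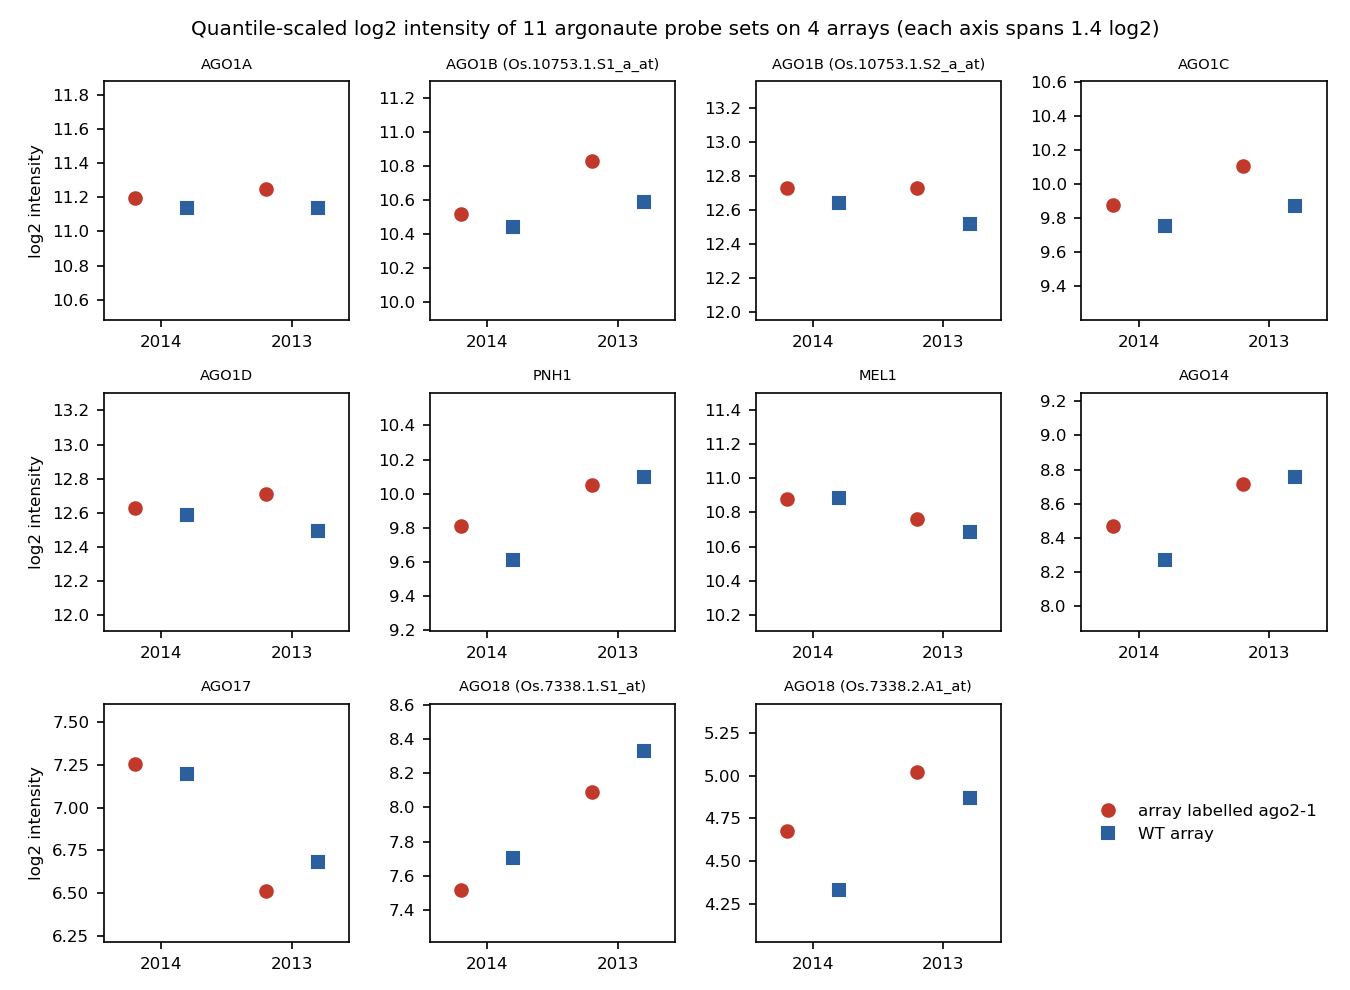
Quantile-scaled log2 intensity (vertical axis, each spanning 1.4 log2) of the 11 probe sets on the 4 arrays, with 2014 left and 2013 right. Circles are arrays labelled ago2-1 and squares are WT arrays. The AGO1A to AGO1D circles stand slightly above the squares of the same year, while AGO17 stands higher and AGO18 lower in 2014.

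PNH1 is the rice relative of Arabidopsis PINHEAD (AGO10), a gene of shoot meristem upkeep. It had 9.81 on the array labelled ago2-1 and 9.61 on the WT array in 2014, against 10.05 and 10.10 in 2013. The sign of the genotype difference changed with the year, 0.20 in 2014 and −0.05 in 2013, so the genotypes overlapped.

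In the MEL1 clade the genotype differences were close to 0 for MEL1 and changed sign with the year for AGO14. MEL1 itself had 10.88 on the array labelled ago2-1 and 10.89 on the WT array in 2014, and 10.76 and 10.69 in 2013. Its differences of −0.01 and 0.07 bracket 0, and the 95% interval with the block ran from −0.28 to 0.34 log2. AGO14, grouped with MEL1 by clade, had 8.47 and 8.27 in 2014, and 8.71 and 8.76 in 2013. Like PNH1 it was higher on the array labelled ago2-1 in 2014 (0.20) and not in 2013 (−0.04).

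AGO17 also changed sign between the years. Its level was 7.25 on the array labelled ago2-1 and 7.20 on the WT array in 2014, and 6.51 and 6.68 in 2013, which gave differences of 0.06 and −0.17.

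The 2 probe sets of AGO18, unlike those of AGO1B, disagreed on the genotypes. The probe set ending in S1_at had 7.52 on the array labelled ago2-1 and 7.70 on the WT array in 2014, and 8.09 and 8.33 in 2013, a difference of −0.21 ± 0.04 (SD, n = 2). The probe set ending in A1_at had 4.67 and 4.33 in 2014, and 5.02 and 4.87 in 2013, a difference of 0.25 ± 0.14 (SD, n = 2). Each kept its own sign in both years, and the second is dim, its mean lying above only 43.4% of probe sets. The other 10 probe sets lay above the median probe set. Neither passed the test, with adjusted p = 1 for both and 0.65 and 0.63 with year as a block (limma).

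**Figure D2:**
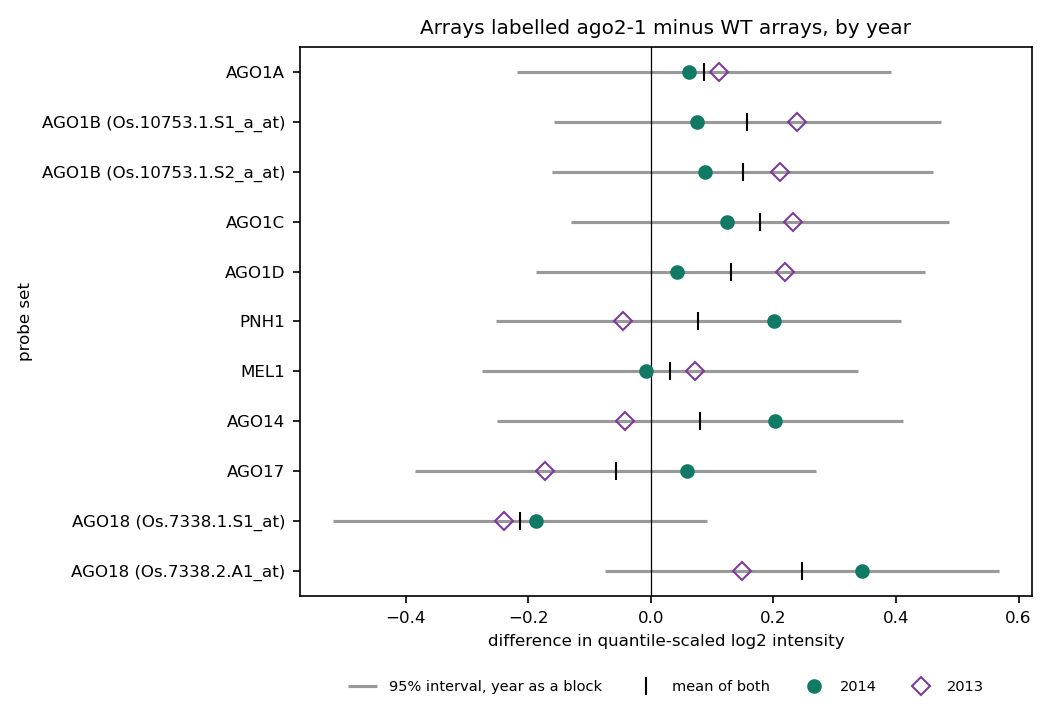
Difference in quantile-scaled log2 intensity between the arrays labelled ago2-1 and the WT arrays (horizontal axis) for each of the 11 probe sets. Filled circles are 2014, open diamonds 2013, ticks the mean of both, and grey bars the 95% interval with year as a block. Every bar crosses 0.

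Over the members, 6 of the 11 probe sets were higher on the arrays labelled ago2-1 in both years, 1 was lower in both and 4 changed sign. Over all probe sets 30.5% were higher in both years and 27.1% lower in both, so 57.5% kept a sign. The genotypes did not overlap for 4 of the 11, namely AGO1A, the second probe set of AGO1B, AGO1C and AGO1D, and for 21.2% of all probe sets. The median size of the difference, sign aside, was 0.09 in 2014 and 0.17 in 2013 for the 11 and 0.13 and 0.16 for all probe sets.

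**Figure D3:**
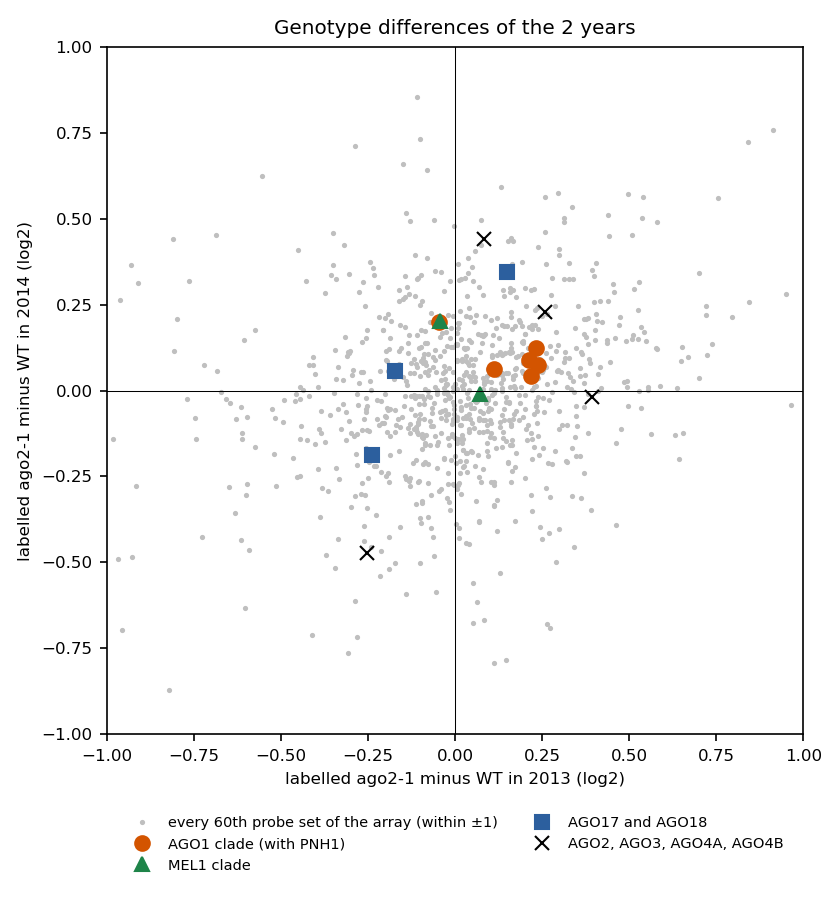
Genotype difference in 2013 (horizontal axis, log2) against that in 2014 (vertical axis, log2) for the 11 probe sets, for 4 other argonautes and for every 60th probe set of the array (grey, shown within 1 log2 of 0). The AGO1A to AGO1D points lie together right of and above 0, and the PNH1 and AGO14 points lie on top of each other.

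Between the years 2 of the members changed. AGO17 rose and AGO18 fell in the panicles of 2014 relative to those of 2013, in both genotypes, while no other member passed the test. Both calls ended when the fit ran on the mean of each gene's probe sets over 17905 genes, of which 10.9% were called (adjusted p = 0.056 for AGO17, which has 1 probe set and kept its difference, and 0.061 for AGO18 at −0.52). That is 2 of 11 probe sets, where 23.3% of all probe sets were called (12.2% higher and 11.1% lower), so the share of the members called is not above that of the array. Season, year and any array batch coincide here and cannot be told apart. In fits on 3 arrays without a genotype term, no probe set of the array was called without the ago2-1 array or without the WT array of 2014, which bears on every call between the years below.

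AGO17 lay at 7.25 and 7.20 in 2014 (labelled ago2-1 and WT) and at 6.51 and 6.68 in 2013. Both arrays of 2014 stood above both of 2013. The rise was 0.63 ± 0.16 log2 (SD of the 2 genotypes' differences, n = 2), or 1.54-fold, with a 95% interval from 0.30 to 0.96 and adjusted p = 0.027 (limma). The deposited intensities were 190 and 182 in 2014, against 74.1 and 82.7 in 2013, a rise of 1.25 log2 before scaling (adjusted p = 0.0013). That rise includes the upward shift of the arrays. Before scaling 78.2% of all probe sets were called higher, and the median difference over all probe sets was 0.71 log2.

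AGO18 lay by the probe set ending in S1_at at 7.52 and 7.70 in 2014 and at 8.09 and 8.33 in 2013, so that both arrays of 2014 stood below both of 2013. The probe set fell by 0.60 log2 (SD 0.04, n = 2), with a 95% interval from −0.90 to −0.29 and adjusted p = 0.026 (limma), but on the deposited scale its direction turned, to 0.03 (adjusted p = 0.83), with intensities of 226 and 259 in 2014 and of 221 and 255 in 2013. The fall is therefore relative to the upward shift of the arrays. The probe set ending in A1_at had −0.44 ± 0.14 (SD, n = 2) and did not pass (adjusted p = 0.059). The 2 probe sets of AGO18, opposed on the genotypes, thus had the same sign between the years in each genotype. Without a genotype term in the fit the call of AGO18 ended (adjusted p = 0.051), and that of AGO17 stood (0.034). Fits without a genotype term on 3 arrays ended the call of AGO17 whichever array was left out, with adjusted p from 0.050 to 0.20. For AGO18 such fits gave 0.049 without the ago2-1 array of 2013 and 0.12 to 0.25 without each of the others.

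PNH1 and AGO14 were next in size, with −0.37 ± 0.17 and −0.36 ± 0.17 (SD, n = 2, adjusted p = 0.098 and 0.099 by limma). All 4 of their differences within a genotype were negative, −0.24 on the arrays labelled ago2-1 and −0.49 on the WT arrays for both genes, but on the deposited scale the direction of both turned (0.23 and 0.28). MEL1 had 0.16 ± 0.06 (SD, n = 2, adjusted p = 0.38). The AGO1A to AGO1D probe sets lay between −0.23 and 0.06, with adjusted p from 0.23 to 0.99. The years did not overlap for 7 of the 11 probe sets, 2 higher and 5 lower in 2014. Of all probe sets 65.6% did not overlap, 34.4% higher and 31.2% lower.

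**Figure D4:**
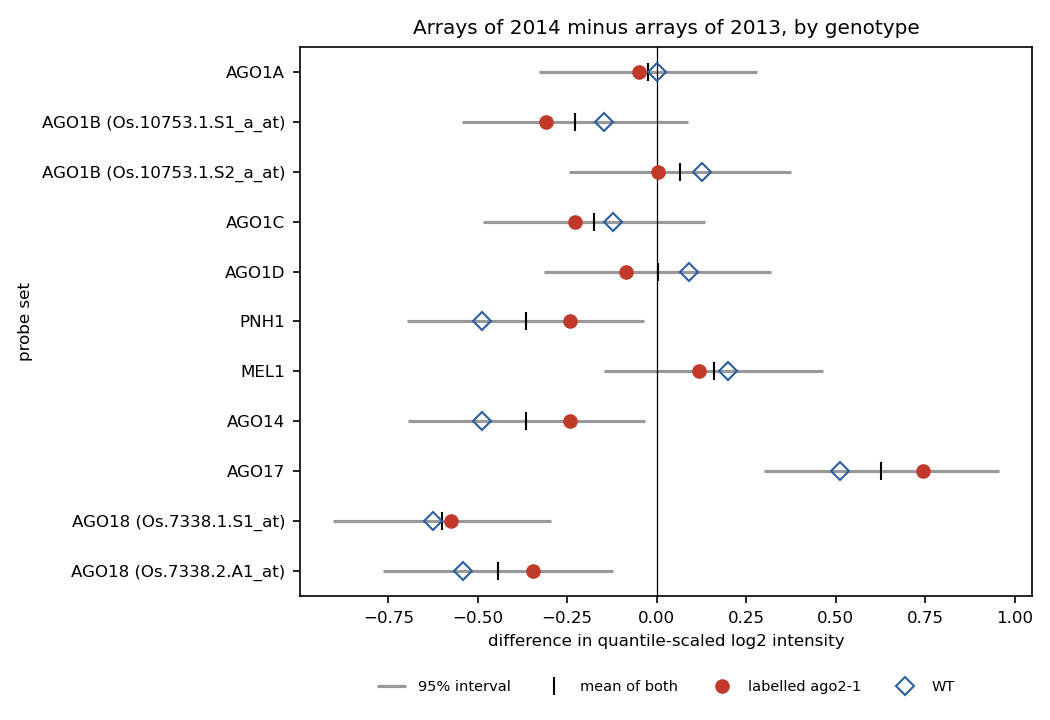
Difference in quantile-scaled log2 intensity between the arrays of 2014 and of 2013 (horizontal axis) for each probe set. Filled circles are the arrays labelled ago2-1, open diamonds the WT arrays, ticks the mean of both and grey bars the 95% interval. AGO17 stands right of 0 and AGO18 left of it in both genotypes.

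Marker genes of cell types moved with the years too, where 22% of all genes were called (11.3% higher and 10.8% lower). All 3 green tissue markers (RBCS, CAB2R and PSAH) rose in 2014, by 2.40, 1.48 and 1.59 log2. As the mean of its probe sets RBCS (4 probe sets) rose by 1.37 and CAB2R (2 probe sets) by 1.97. The summed linear level of all 3 markers was 16700 and 18308 in 2014 (labelled ago2-1 and WT), against 6373 and 5508 in 2013. Of 10 anther wall and tapetum markers 5 fell (TDR, PTC1, RAFTIN1, CYP703A3 and C6) and none rose. On the deposited scale only PTC1 and CYP703A3 of these were called lower, while TDL1A (1.07), EAT1 (0.54) and TIP2 (0.74) were called higher. That scale keeps the upward shift of the arrays, with 78.2% of all probe sets called higher and a median difference of 0.71 log2. After scaling TDL1A had 0.45, EAT1 −0.06 and TIP2 0.13, and none of them was called. With no genotype term PTC1 and C6 were the only 2 markers of this list called, where 16.2% of all probe sets were. The sum over all 10 of these markers was 4970 and 6589 in 2014, against 7081 and 9376 in 2013. Such sums follow the brightest probe sets of a list most. Of 7 germ cell and meiosis markers SPO11-4 and MER3 rose, by 0.75 and 0.53 (MER3 turned to −0.19 as the mean of its 2 probe sets), and PAIR1 fell by 0.59 (0.04 on the deposited scale, where its direction turned), with a sum of 4815 and 4902 in 2014, against 3536 and 3331 in 2013. None of 4 meristem markers passed, with OSH6 at 0.41 and OSH1 at 0.31 (sums of 4003 and 3785, against 3282 and 3235). No marker was at 0, the lowest linear value being 12.1. Whether these cell types have a part in the changes of AGO17 and AGO18 was not tested. In whole panicles, fewer cells of a type and less RNA per cell cannot be told apart.

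Between the genotypes no marker passed the test without a block. The anther wall and tapetum list was lower on the arrays labelled ago2-1 in both years for 9 of its 10 measured genes, with RAFTIN1 at −1.78 in 2014 and −2.13 in 2013 (with year as a block its adjusted p was 0.022) and CYP703A3 at −1.66 and −0.85. Over 17905 genes 30.4% were lower in both years. Its part in the small genotype differences of the argonautes was not tested. The largest differences in the other lists were −0.37 for OSH43, 0.26 for OSH6, 0.16 for MER3 and −0.09 for SDS.

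Among the remaining argonautes that were reached by name and measured, none of 4 differed between the genotypes past the threshold (adjusted p = 1 each by limma). Argonautes not reached by name are not covered, which does not mean that the array lacks them. AGO3 had −0.47 in 2014 and −0.25 in 2013, AGO4B, a relative of the argonautes of DNA methylation, had 0.23 and 0.26, and AGO4A had −0.02 and 0.39. The median over these 4 genes, which go both ways, was 0.22. Leaving out ago2-1 of 2014 gave 0.028, leaving out WT of 2014 gave 0.35 and leaving out WT of 2013 gave 0.031. Leaving out ago2-1 of 2013 gave 0.24. Such fits mix the year change into the difference, so they cannot show whether the median rests on single arrays. On all 4 arrays the 9 member genes had a median of 0.08 and all genes 0.01. AGO2 was the only one called between the years, higher by 0.58 in 2014 (adjusted p = 0.041 by limma). Its call ended after cyclic loess scaling (adjusted p = 0.056), among the brighter probe sets (0.062) and with no genotype term (0.084). It also ended by the mean of a gene's probe sets (0.076), although AGO2 has 1 probe set and kept its difference. The others had 0.22 for AGO3, 0.17 for AGO4A and 0.15 for AGO4B. AGO7 has no probe set of its own here.

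The enzymes that make small RNAs were compared in the same way, with 6 genes measured. None was called between the genotypes, and RDR4, an RNA-dependent RNA polymerase, had the widest difference, 0.38 in 2014 and 0.90 in 2013 (adjusted p = 1, and 0.43 with year as a block). SGS3, a partner of such polymerases, had 0.04 and 0.18. Between the years 2 rose and 1 fell, that is 3 of 6 where 22% of all genes were called. DCL4, the dicer that makes phased small RNAs of the kind MEL1 binds, rose by 0.56 in 2014 (adjusted p = 0.034), and DCL2A by 0.55 (0.045). RDR2, the polymerase of the DNA methylation pathway, fell by 0.46 (0.049), with 0.17 on the deposited scale, where its direction turned. The call of DCL2A ended after median centring (adjusted p = 0.060) and after cyclic loess (adjusted p = 0.054). Among the brighter probe sets 1 of the 6, DCL4, was called, where 17.4% of those probe sets were. With no genotype term DCL4 alone was called again, where 16.2% of all probe sets were. RDR2 had adjusted p = 0.060 and 0.055 in these fits (limma). By the mean of a gene's probe sets 0 of 6 were called, where 10.9% of all genes were. DCL4 and RDR2 have 1 probe set each and kept their differences there. The list median was −0.03, against −0.02 for the 9 member genes and −0.01 for all genes.

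AGO18, by its probe set ending in S1_at alone, had the widest range of the 9 genes over the 4 arrays, 0.81 log2. Among 17904 other genes the 5 with the most similar values, each centred on its own mean over the 4 arrays, were LOC4341357, LOC4325980, LOC9269702 (SL1), LOC4342035 and LOC4341722. Their Euclidean distances from AGO18 were 0.039, 0.042, 0.043, 0.051 and 0.055 log2. LOC4341722 is dim, its mean lying above only 15.8% of probe sets. As deposited, the closest gene, LOC4341357, had 824 and 943 in 2014 and 827 and 952 in 2013. Its fall, like that of AGO18, is thus relative to the upward shift of the arrays. The values rest on 4 arrays and describe likeness alone.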

How the data were processed

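Young panicle RNA was measured on 4 arrays, and the authors deposited probe set intensity values on a linear scale. The submitters' processing notes name RMA and give no version for it; further steps and the extraction (its label names another tissue) are not given in the sources used here. Here log2 was taken with no pseudocount, the 4 arrays were quantile-scaled, and differences were fitted with limma 3.58.1 (lmFit, eBayes) in R 4.3.3 over all 57194 probe sets, with Benjamini-Hochberg adjustment and a threshold of 0.05. The genotype fit had no block, the year fit a genotype term. The script was tested on simulated data.

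The year stands in the titles and marks a shared season, so it pairs arrays: deviations from the genotype means correlated with r = 0.76 for arrays of the same year, and the component separating the years held 72.1% of the variance. Symbols came from the RefSeq table of assembly ASM3414082v1, which held all 17905 genes. Members and lists were chosen with earlier results of these data known. In lists, the probe set with the highest mean stood for a gene. Named beside the members were AGO2, every other argonaute measured, list members past the threshold and the 2 with the largest difference in each comparison. Names that reached no gene or several were left out. The argonautes and enzymes called measured are therefore those reached by name, and the lists do not cover whole families. The number of arrays limits the precision.

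Alternatives were the deposited scale, median centring, cyclic loess, brighter probe sets only, a trend in or robust prior variance, a threshold of 0.1, year as a block, leaving out each array, no genotype term, and the mean of a gene's probe sets. No member carries an _x_at or _s_at suffix, so leaving such probe sets out changes no member value.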

Additional observations from a re-analysis of the deposited data

Results flagged for a closer look

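The genotype difference (arrays labelled ago2-1 minus WT) had opposite signs in the 2 years for 5 genes, with 1 array behind each level, and the contrast between the years was not tested. PNH1 had 0.20 in 2014 and −0.046 in 2013, AGO14 had 0.20 and −0.043, AGO17 had 0.058 and −0.17, MEL1 had −0.0087 and 0.071, and AGO4A had −0.019 and 0.39. Over all probe sets 42.4% had opposite signs.

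The change between the years (2014 minus 2013) had opposite signs in the genotypes for 3 genes, again untested. AGO1A had −0.050 on the arrays labelled ago2-1 and 0.00064 on the WT arrays, AGO1D had −0.086 and 0.091, and AGO4A had −0.040 and 0.37.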

How the results depend on the processing

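Between the genotypes 1 probe set of the array was called. The count was 29 on the deposited scale, 6 at a threshold of 0.1, 67 with year as a replicate block, 61 with the block on the deposited scale, and 0 to 2 without single arrays. No member was called in any of these, so the block changed no call of a member. Without single arrays, which mixes the year change into the difference, the sign turned for MEL1 (−0.068 to 0.13), AGO14 (−0.16 to 0.32), PNH1 (−0.17 to 0.32), AGO17 (−0.43 to 0.31) and AGO18 (−0.53 to 0.10 and −0.024 to 0.52).

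Between the years 13338 probe sets were called, 46058 on the deposited scale (78.2% of all probe sets higher and 2.31% lower), 4971 of the brighter probe sets, 20919 at a threshold of 0.1, and 0 to 8295 without single arrays (0 without either array of 2014). Of the 11 member probe sets 2 were called, where 23.3% of all probe sets were. On the deposited scale it was 7 (80.5% of all), at a threshold of 0.1 it was 5 (36.6%) and with no genotype term 1 (16.2%). By the mean of a gene's probe sets 0 of 9 genes were called, where 10.9% of all genes were. On the deposited scale, which keeps the upward shift of 2014, the direction turned for AGO1A (0.57), AGO1B by its first probe set (0.36), AGO1C (0.42), PNH1 (0.23), AGO14 (0.28) and AGO18 (0.029 and 0.22). Without single arrays it turned for AGO1A (−0.081 to 0.031), AGO1D (−0.11 to 0.11) and AGO1B by its second probe set (−0.041 to 0.17). Other causes were not tested.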

Other observations

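PNH1 and AGO14 had nearly the same values over the 4 arrays once each was centred on its own mean, a pair noticed after the values were seen. Their distance was 0.0028 log2 after quantile scaling, and none of the other genes lay closer to PNH1. It was 0.056 on the deposited scale, where 10 genes lay closer, and 0.037 after cyclic loess, where 2 did.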
